A study of Mus musculus with 4 samples.

Results

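Replication-dependent histone genes encode the bulk of the H1, H2A, H2B, H3 and H4 proteins that package newly copied DNA. The members described here were all gene symbols that start with Hist1h, Hist2h, Hist3h or Hist4h and reached at least 1 CPM, the UMIs of a gene per 1000000 UMIs of the library, in any library. A UMI (unique molecular identifier) marks 1 captured RNA molecule. Of 67 such symbols among 32285 features, 61 were members: 5 H1, 16 H2A, 16 H2B, 11 H3 and 13 H4 genes. The Hist1 genes on mouse chromosome 13 gave 50 of them, the Hist2 genes on chromosome 3 gave 8, the Hist3 genes on chromosome 11 gave 2 and Hist4h4 on chromosome 6 was the other.

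The study measured single-cell RNA of LSK bone marrow cells (lineage-negative, Sca-1-positive and Kit-positive), a population sorted for stem cells of the blood and their first descendants. Each of 4 libraries pooled cells of 5 mice aged 8 to 12 weeks, and each genotype had 1 library. The control carried Vav1-iCre alone, in genotype Vav1-iCre/+, which expresses a recombinase in blood-forming cells. Ikk2-CA mice were Vav1-iCre/+, Ikk2-CA flox/+ and expressed Ikk2 kinase in a permanently active form, which switches on the transcription factor NF-κB. Jak2 V617F mice were Vav1-iCre/+, Jak2 V617F flox/+ and carried the activated kinase of myeloproliferative disease. The double mutant, with Vav1-iCre/+ as well, was flox/+ for both the Jak2 V617F and the Ikk2-CA allele. Vav1-iCre was thus common to all 4 groups, and an NF-κB-responsive EGFP reporter was also part of the crosses. With 1 pool per genotype no test across animals was possible, no p-value is given, and every interval below is a 95% interval for counting error only.

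Replication-dependent histone genes lie in clusters, mostly lack introns and are transcribed in S phase. Their mRNAs end just past a conserved stem-loop in place of a poly(A) tail, and stem-loop binding protein (Slbp) holds that loop for processing and translation. Droplet libraries of this kind prime on runs of A, so the captured UMIs may represent only part of each gene's RNA. Some histone genes also give longer, polyadenylated RNAs outside S phase. UMIs were not scaled for length, so levels of different members are shares of captured molecules.

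After the cell filter 37344 of 41674 barcodes remained, between 5268 and 14156 per library, with summed UMIs from 102362297 in control to 197836491 in Ikk2-CA. Median UMIs per cell were 10606 in control, 17726 in Ikk2-CA, 11106.5 in Jak2 V617F and 24915 in the double mutant. Pairs of libraries shared between 12 and 60 cell barcodes. The gate's own markers were present: Kit, the stem cell factor receptor, was at 149 CPM in control and 87.6 in Ikk2-CA, the lowest. Ly6a, which encodes Sca-1, ran from 106 CPM in control to 233 in Ikk2-CA. The share of cells with no UMI of Xist, which coats the silenced X chromosome of female cells, was 43.5% in control, 75.9% in Ikk2-CA, 99.7% in Jak2 V617F and 71.1% in the double mutant. In cells with no Xist UMI the summed histone log2 ratio to control was 1.58 in Ikk2-CA, 0.63 in Jak2 V617F and 1.02 in the double mutant, against 1.65, 0.69 and 1.04 over all kept cells.

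The stem-loop that defines this gene class was found in the annotated transcript of 41 of the 61 members, as 6 paired bases, a loop of 4 and the same 6 in reverse complement. It started 21 to 58 bases past the stop codon, with a median of 31. The other 20 members had none in their annotated transcript, and 13 of those are annotated with a 3′ UTR of 2 bases or fewer. The loops below, from the GENCODE transcripts on GRCm38, are of members the results turn on. Capitals mark the 16 bases of stem and loop, and lower case the bases beside them.
Hist1h2ap (chr13:21833026-21833049, minus strand): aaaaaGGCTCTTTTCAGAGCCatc
Hist1h2ac (chr13:23683472-23683497, minus strand): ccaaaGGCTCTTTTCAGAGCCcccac
Hist1h1e (chr13:23621777-23621802, minus strand): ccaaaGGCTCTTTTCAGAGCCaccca
Hist1h3c (chr13:23745042-23745067, minus strand): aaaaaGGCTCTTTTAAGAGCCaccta
Hist1h4d (chr13:23581945-23581970, plus strand): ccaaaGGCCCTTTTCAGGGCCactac
Hist4h4 (chr6:136803993-136804018, minus strand): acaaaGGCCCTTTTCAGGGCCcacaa
The same 16 bases as in Hist1h2ap stood in 24 members of H1, H2A, H2B and H3, whereas the loop of Hist1h4d and Hist4h4 stood in 7 members, all H4. None of the 11 H4 loops was found in another type. Hist1h2ap and Hist1h2ac carry the same 16 bases, yet their annotated 3′ UTRs are 57 and 2058 bases long. Their levels moved in opposite directions, as given below.

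The summed level of the 61 members was highest in Ikk2-CA. It was 1239 CPM in control (interval 1232 to 1246), 3893 CPM in Ikk2-CA (3885 to 3902), 1997 CPM in Jak2 V617F (1990 to 2003) and 2556 CPM in the double mutant (2548 to 2564). Ikk2-CA stood 3.14-fold above control (interval 3.12 to 3.16), Jak2 V617F 1.61-fold (1.60 to 1.62) and the double mutant 2.06-fold (2.05 to 2.08). The double mutant therefore lay between the single mutants, at 0.656 of the Ikk2-CA level (0.654 to 0.659) and 1.28 times the Jak2 V617F level (1.27 to 1.29). On the log2 scale it was 1.30 below the value that adding both single-mutant differences to control would give. The 3 ratios share the control library.

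Over all 12500 features with 1 CPM or more in any library, the median log2 ratio was -0.28 in Ikk2-CA, -0.01 in Jak2 V617F and -0.30 in the double mutant. The median over the 61 members was 1.27, 0.42 and 0.95 in that order. In Ikk2-CA 35 members were at least 2-fold above control, against 3.62% of all features, and 1 was at most 0.5-fold, against 7.5% of all features. In Jak2 V617F 9 members were at least 2-fold higher, against 0.912% of all features, and 1 was at most 0.5-fold, against 1.7%. In the double mutant 29 members were at least 2-fold higher, against 1.39% of all features, and 0 were at most 0.5-fold, against 7.31%. Relative to the median gene, a scale chosen after seeing the data, the counts of members at least 2-fold higher were 45, 10 and 40, against 5.04%, 0.96% and 2.38% of all features. With Mki67-positive and Mki67-negative cells weighted by their control shares, 30, 4 and 18 members were at least 2-fold higher, against 3.59%, 0.953% and 1.31% of all features.

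**Figure D1:**
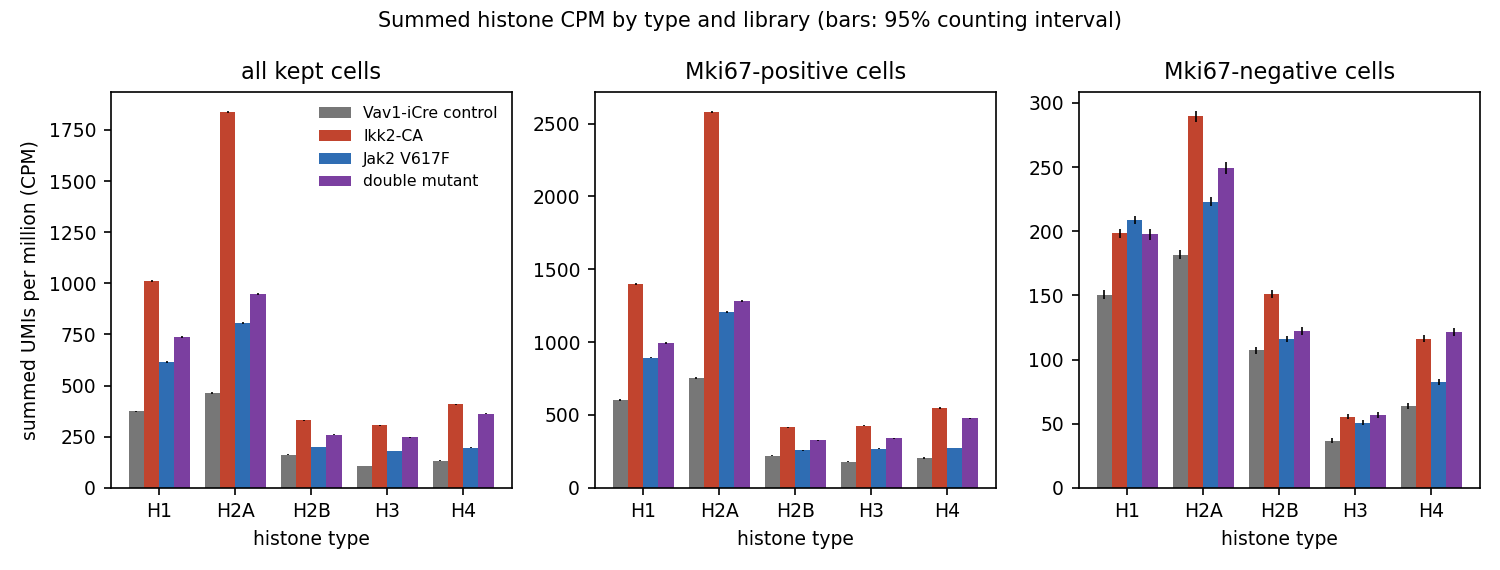
Summed CPM of the members of each histone type (y axis) in the 4 libraries, for all kept cells, Mki67-positive cells and Mki67-negative cells, each panel on its own scale; error bars are 95% counting intervals. H2A was at 463 CPM in control and 1837 in Ikk2-CA over all kept cells, whereas in Mki67-negative cells it was at 182 and 289.6 CPM.

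By type, H2A differed most in Ikk2-CA. Its 16 members summed to 463 CPM in control, 1837 in Ikk2-CA, 807 in Jak2 V617F and 948 in the double mutant, which is 3.97-fold (interval 3.93 to 4.01), 1.74-fold (1.73 to 1.76) and 2.05-fold (2.03 to 2.07) above control. H4, the partner of H3 in the nucleosome core, was 3.08-fold higher in Ikk2-CA (3.02 to 3.13), 1.47-fold in Jak2 V617F (1.44 to 1.50) and 2.73-fold in the double mutant (2.68 to 2.78). H3 stood at 2.87-fold, 1.69-fold and 2.33-fold, and the linker histones H1 at 2.70-fold, 1.64-fold and 1.97-fold, in the same order. H2B was the lowest of the types in all 3 comparisons, at 2.03-fold, 1.23-fold and 1.60-fold. H2A thus took 37.4% of member UMIs in control and 47.2% in Ikk2-CA, while H2B took 13.1% and 8.50%.

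Against Ikk2-CA 0 members were at least 2-fold higher, against 1.26% of all features, and 5 were at most 0.5-fold, against 4.27%. Against Jak2 V617F 12 were at least 2-fold higher, against 1.24%, and 0 were at most 0.5-fold, against 4.52%.

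The position of the double mutant also differed by type. The double mutant's H2A sum was 0.516 of the Ikk2-CA sum (interval 0.513 to 0.519), but its H4 sum was 0.888 of it (0.879 to 0.898). Leaving out Hist1h2ap or Hist1h4d, which had the highest ratios to control in Ikk2-CA among members with 10 CPM or more and were chosen after the values were seen, changed these values. Without Hist1h2ap the H2A sum was 0.691 of the Ikk2-CA sum (0.686 to 0.696), and H2A was 2.92-fold above control in Ikk2-CA, 1.38-fold in Jak2 V617F and 2.02-fold in the double mutant. Without Hist1h4d the H4 sum was 0.831 of the Ikk2-CA sum (0.817 to 0.846), and it was 1.82-fold, 1.24-fold and 1.51-fold above control, against 3.08-fold, 1.47-fold and 2.73-fold with it. Without Hist1h2ap all members together remained above control at 2.74-fold, 1.48-fold and 2.05-fold.

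**Figure D2:**
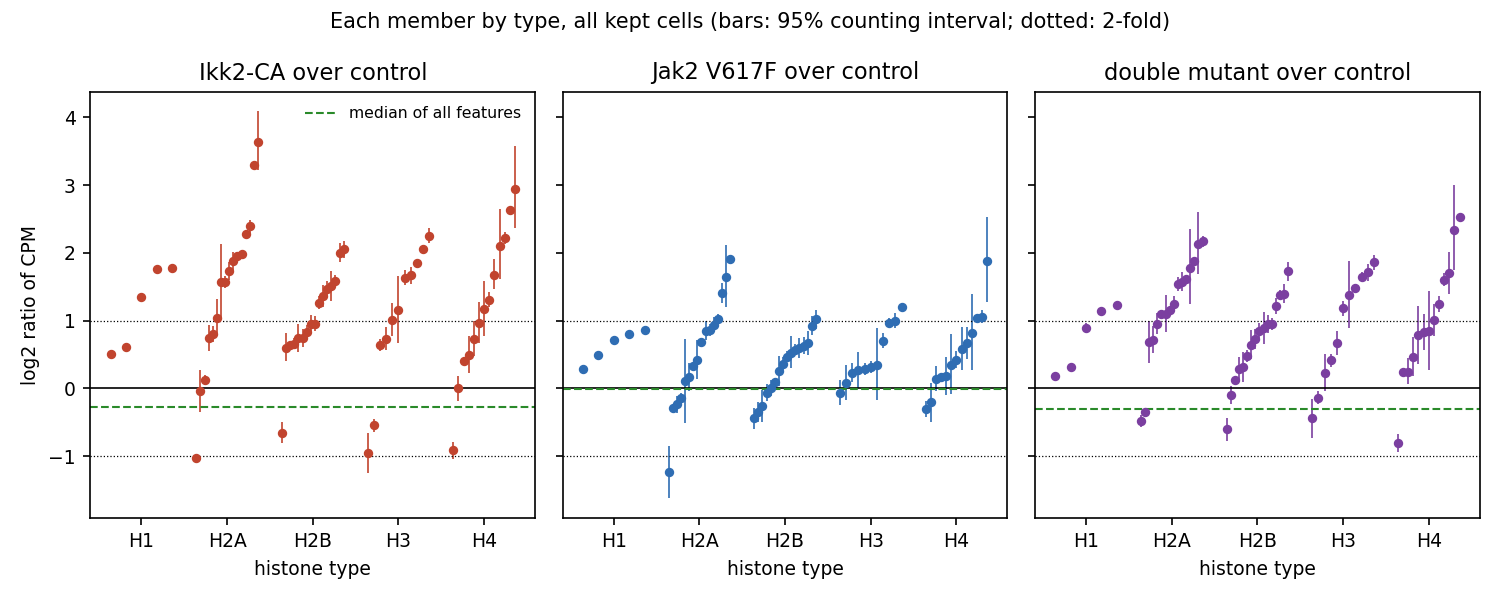
Log2 ratio of CPM over control (y axis) for each of the 61 members, by histone type, in the 3 mutants over all kept cells; bars are 95% counting intervals, dotted lines mark 2-fold and the dashed line the median of all features. The median of all features is -0.28 in Ikk2-CA, -0.01 in Jak2 V617F and -0.30 in the double mutant. In Ikk2-CA 55 of 61 members lie above 0, in Jak2 V617F 50 and in the double mutant 54.

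The ratio to control was above 1 in all 3 mutants for 48 of the 61 members. It was below 1 in all 3 for Hist1h2ac, Hist2h2be and Hist4h4. The share of all features on 1 side in all 3 mutants is not given, and the 3 ratios share the control library.

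Among the linker histones, which bind the DNA between nucleosomes, Hist1h1b (the H1.5 gene) was at 166 CPM in control, 566 in Ikk2-CA, 290 in Jak2 V617F and 389 in the double mutant. Its ratio to control was 3.41 in Ikk2-CA (interval 3.36 to 3.47), 1.75 in Jak2 V617F (1.72 to 1.78) and 2.34 in the double mutant (2.30 to 2.38). Hist1h1e (H1.4) stood at 82.8, 210, 151 and 183 CPM in the same order of libraries. Hist1h1a (H1.1) was lower throughout, at 26.2 CPM in control and 88.9 in Ikk2-CA, a ratio of 3.40. Hist1h1c (H1.2), which is known for a polyadenylated transcript, differed less, at 54.7 CPM in control against 77.8, 77.0 and 61.8 in the mutants. Hist1h1d (H1.3) was likewise within 1.53-fold of control in each mutant, so within H1 only Hist1h1a, Hist1h1b and Hist1h1e passed 2-fold in Ikk2-CA.

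Among the H2A genes, 11 of 16 were at least 2-fold above control in Ikk2-CA, 4 in Jak2 V617F and 11 in the double mutant, against 3.62%, 0.912% and 1.39% of all features. Hist1h2ap (ENSMUSG00000094777) was at 70.4 CPM in control, 693 in Ikk2-CA, 265 in Jak2 V617F and 157 in the double mutant. The 4 values are far apart for counting error: the ratio to control was 9.85 in Ikk2-CA (9.62 to 10.1), 3.76 in Jak2 V617F (3.67 to 3.85) and 2.23 in the double mutant (2.17 to 2.29). The double mutant was thus below both single mutants for this gene, at 0.227 of Ikk2-CA. Of its 50-base stretches, 93.1% also occur in another histone symbol, as do 93.5% of those of Hist1h2ao. How reads in such stretches were counted was not tested. The levels of both genes may therefore miss reads or hold those of another gene.

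Hist1h2ae, with the highest mean level of all members, stood at 179 CPM in control, 693 in Ikk2-CA, 286 in Jak2 V617F and 381 in the double mutant. Hist1h2ab followed another order, at 29.7, 143, 37.3 and 109 CPM, so Jak2 V617F stayed near control (ratio 1.26) while the double mutant was 3.69-fold higher. Hist1h2an was highest in the double mutant, at 60.6 CPM against 13.5 in control, 40.0 in Ikk2-CA and 24.6 in Jak2 V617F. Hist2h2ac was at 22.7, 89.5, 46.3 and 69.2 CPM. Hist1h2ac was the exception among the abundant H2A genes: it was at 92.5 CPM in control, 45.3 in Ikk2-CA, 75.5 in Jak2 V617F and 72.9 in the double mutant, or 0.489 of control in Ikk2-CA (0.475 to 0.504). Hist3h2a stood at 22.2, 24.1, 20.1 and 15.8 CPM, and its ratio in Ikk2-CA, 1.08, was below 1 in cells without Xist. The single member at most 0.5-fold in Jak2 V617F was Hist1h2ao, at 1.29 CPM in control and 0.547 in that library, named because the count was 1.

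The H2B genes were lower and varied less. Hist1h2bj stood at 16.3 CPM in control, 49.0 in Ikk2-CA, 24.1 in Jak2 V617F and 42.3 in the double mutant. Hist2h2bb had the highest ratio of the type in Ikk2-CA and in the double mutant, at 4.14 and 3.31, from 5.27 CPM in control. Hist1h2bc, the H2B gene with the most UMIs, was at 54.9, 85.8, 58.6 and 59.6 CPM, and in Jak2 V617F and the double mutant it fell on either side of control depending on how cells were weighted. Hist2h2be was below control in every mutant, at 6.30, 4.00, 4.63 and 4.13 CPM.

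Of the H3 genes, Hist1h3c was at 23.3 CPM in control, 96.5 in Ikk2-CA, 53.4 in Jak2 V617F and 72.7 in the double mutant. Its ratios were 4.15 (3.98 to 4.33), 2.30 (2.20 to 2.40) and 3.13 (2.99 to 3.27). Hist1h3f stood at 7.87, 37.5, 12.8 and 28.6 CPM and Hist1h3e at 23.1, 83.0, 45.3 and 64.4. Hist1h3d went the other way in Ikk2-CA, at 11.4 CPM against 16.7 in control, while Jak2 V617F was at 20.3. Its ratio in the double mutant, 0.910, was above 1 with either of the other scalings.

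Of the H4 genes, Hist1h4d stood apart, at 38.0 CPM in control, 236 in Ikk2-CA, 77.8 in Jak2 V617F and 219 in the double mutant. The ratio to control was 6.21 in Ikk2-CA (6.01 to 6.42), 2.05 in Jak2 V617F (1.98 to 2.12) and 5.78 in the double mutant (5.59 to 5.98). The double mutant thus nearly reached Ikk2-CA for this gene, unlike for Hist1h2ap. Hist1h4h, at 11.5, 53.3, 23.9 and 34.9 CPM, kept the order of the summed level. Hist1h4i differed less, at 54.6, 72.6, 61.2 and 64.4 CPM, and its ratio in the double mutant, 1.18, was below 1 with Mki67 classes at control shares. Hist4h4, alone on chromosome 6, was at 9.84, 5.23, 7.94 and 5.61 CPM, or 0.531 of control in Ikk2-CA (0.487 to 0.580).

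A list of 3 members known for polyadenylated transcripts was Hist1h1c, Hist1h2bc and Hist2h2be. They summed to 116 CPM in control, 168 in Ikk2-CA, 140 in Jak2 V617F and 125 in the double mutant. In each mutant 0 of the 3 were at least 2-fold higher, against 3.62%, 0.912% and 1.39% of all features. At most 0.5-fold were also 0, against 7.5%, 1.7% and 7.31%. A count over 3 genes cannot be told from these shares.

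Just above the threshold were Hist1h3h with a highest level of 1.14 CPM, Hist1h2ah with 1.17 and Hist1h4f with 1.43. Just below it were Hist2h3c2 with 0.823, Hist1h1t, a testis H1 gene, with 0.104 and Hist2h2aa2 with 0.0164 CPM. Hist1h2bq and Hist1h2aa had no UMI in any library. The highest ratio of any member, 12.5 for Hist1h2ai in Ikk2-CA, rested on 0.469 CPM in control.

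Mki67, the Ki-67 gene, is transcribed in cycling cells and was used to divide the cells. Cells with at least 1 Mki67 UMI were 33.4% of control cells (32.4 to 34.4), 54.9% in Ikk2-CA (53.9 to 55.9), 41.3% in Jak2 V617F (40.5 to 42.2) and 53.7% in the double mutant (52.3 to 55.0). Since depth differed, every cell was also thinned to 5000 UMIs, which left out 838, 405, 1361 and 146 shallower cells. The share with Mki67 was then 25.6%, 38.4%, 32.4% and 31.3%, so the double mutant's share came down to that of Jak2 V617F. Mki67 itself was at 192, 217, 211 and 168 CPM. Free RNA in droplets can place UMIs in cells that do not express a gene, and its part was not tested.

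The members were higher in Mki67-positive cells in every library. Their sum was 1966 CPM in positive and 540 in negative control cells, a ratio of 3.64 (3.59 to 3.69). In Ikk2-CA it was 5370 and 811 CPM, a ratio of 6.62 (6.56 to 6.68). In Jak2 V617F it was 2905 and 681 CPM, a ratio of 4.27 (4.23 to 4.31), and in the double mutant 3421 and 746 CPM, a ratio of 4.58 (4.53 to 4.63). At least 2-fold higher in positive cells were 51 members in control, against 4.72% of all features, 56 in Ikk2-CA against 3.85%, 53 in Jak2 V617F against 3.55% and 55 in the double mutant against 3.37%. At most 0.5-fold were 0 members in each library, against 4.55%, 5.22%, 3.38% and 4.19% of all features. With Top2a, another gene of dividing cells, in place of Mki67 the control ratio on the log2 scale was 1.23 and not 1.86. Positive cells were deeper in every library, with a median of 17857 UMIs against 9289 in control.

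Within Mki67-positive cells the summed level was 2.73-fold above control in Ikk2-CA (2.71 to 2.75), 1.48-fold in Jak2 V617F (1.47 to 1.49) and 1.74-fold in the double mutant (1.73 to 1.75). There 30, 4 and 18 members were at least 2-fold higher, against 3.64%, 1.2% and 1.47% of all features, and 1, 1 and 0 were at most 0.5-fold, against 6.91%, 1.88% and 6.64%. Within Mki67-negative cells the summed ratios were smaller, at 1.50 (1.48 to 1.52), 1.26 (1.24 to 1.28) and 1.38 (1.36 to 1.40), and 18, 3 and 18 members were at least 2-fold higher, against 3.78%, 1.19% and 1.41%. There 5, 1 and 3 members were at most 0.5-fold, against 5.81%, 1.53% and 5.38%. The values in negative cells changed with the depth at which Mki67 was called. With Mki67 called on 5000 UMIs per cell, the log2 ratio in negative cells was 1.35 in Ikk2-CA and 1.13 in the double mutant. At full depth it was 0.59 and 0.47. The call on 5000 UMIs gave fewer positive cells, at 25.6% in control, 38.4% in Ikk2-CA and 31.3% in the double mutant. At full depth they were 33.4%, 54.9% and 53.7%. The part in these ratios of cells that changed class was not tested. With the call on 5000 UMIs the log2 ratio of positive over negative cells was 1.76 in control and 1.94 in Ikk2-CA. It was 1.68 in Jak2 V617F and 1.54 in the double mutant. At full depth the 4 values were 1.86, 2.73, 2.09 and 2.20. With the call on 5000 UMIs Jak2 V617F and the double mutant were thus below control.

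By type, the ratio of positive over negative cells was lowest for H2B, at 2.06 in control, 2.76 in Ikk2-CA, 2.23 in Jak2 V617F and 2.67 in the double mutant. It was highest for H3 in control, at 4.85, and for H2A in Ikk2-CA, at 8.90. H1 stood at 4.03, 7.06, 4.28 and 5.04 and H4 at 3.22, 4.72, 3.32 and 3.94 in the 4 libraries.

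Single members ranged widely. Hist1h1b was at 320 CPM in positive and 17.6 in negative control cells, a ratio of 18.2 (17.0 to 19.4), and at 819 and 39.4 in Ikk2-CA, a ratio of 20.8. Hist1h3c was at 45.5 and 1.88 CPM in control and 140 and 4.74 in Ikk2-CA, ratios of 24.2 and 29.6. Hist1h2ab had ratios of 20.9, 29.4, 18.1 and 22.4 in the 4 libraries. At the other end Hist1h2bc was lower in positive than in negative cells in all 4 libraries, at ratios of 0.808, 0.867, 0.847 and 0.881. Hist3h2a was near level, at 1.05, 0.962, 1.22 and 1.39. Hist1h2ac had ratios of 1.24 in control and 1.23 in the double mutant but 2.46 in Ikk2-CA, where its level was 56.0 CPM in positive and 22.8 in negative cells.

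The members were also divided by this ratio, after the values were seen. The 10 members with a ratio under 2 in control were Hist1h1c, Hist1h2ac, Hist1h2bc, Hist1h2be, Hist1h2bg, Hist2h2be, Hist2h4, Hist3h2a, Hist3h2ba and Hist4h4. Together they were at 277 CPM in control, 303 in Ikk2-CA, 287 in Jak2 V617F and 271 in the double mutant, ratios of 1.09, 1.03 and 0.976. The near-level sum in Ikk2-CA held opposite differences. Hist1h2ac (92.5 CPM in control and 45.3 in Ikk2-CA), Hist2h2be and Hist4h4 were below control. The rest were at or above it, Hist1h2bc at 54.9 and 85.8 CPM and Hist1h1c at 54.7 and 77.8. The 51 members with a ratio of 2 or more were at 962, 3591, 1710 and 2285 CPM, ratios of 3.73, 1.78 and 2.38. The 10 members took 22.4% of member UMIs in control and 7.78% in Ikk2-CA, at summed levels within 1.09-fold of each other. The split and the genotype ratios share the control library, and no test was made of the difference.

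**Figure D3:**
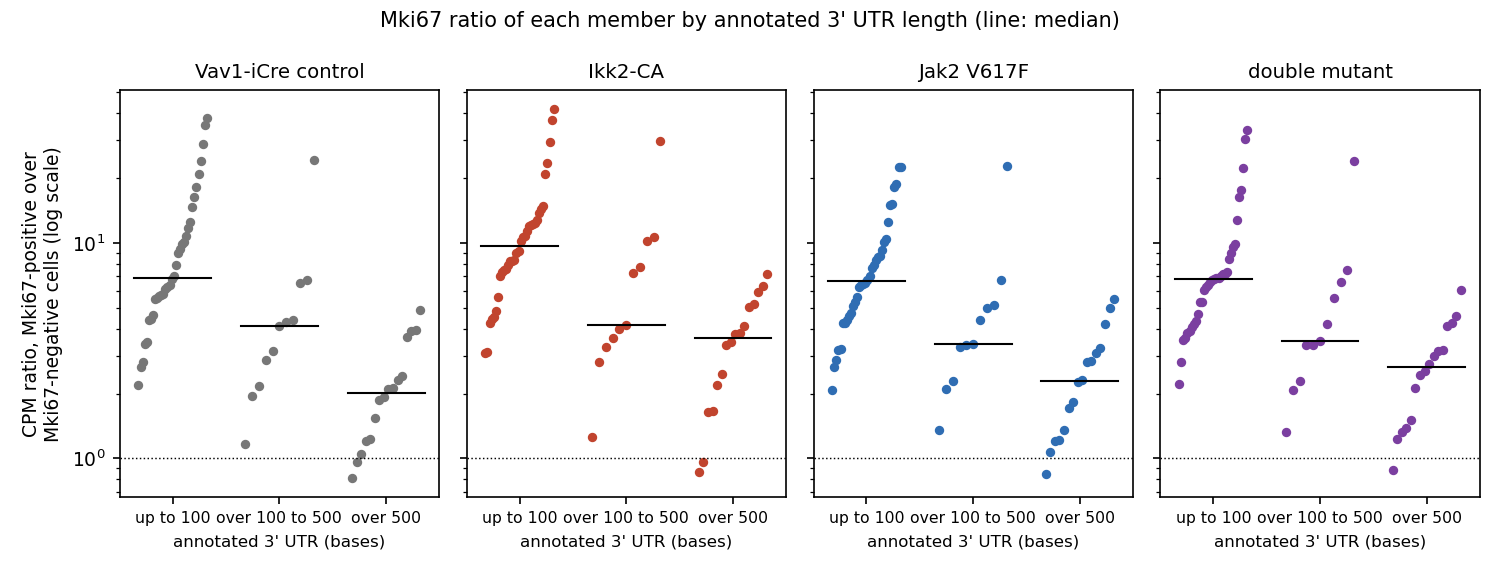
CPM ratio of Mki67-positive over Mki67-negative cells (y axis, log scale) for each member by the length of its longest annotated 3′ UTR, in the 4 libraries; the line is the median and the dotted line marks 1. In control the median is 6.90 for members with up to 100 bases and 2.02 for those with over 500 bases, and the ranges overlap.

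Of those 10 members, 8 had an annotated 3′ UTR of over 500 bases. This grouping was also made after the values were seen. Of 34 members with an annotated 3′ UTR of up to 100 bases, 0 had a ratio under 2 in control. With over 100 and up to 500 bases it was 2 of 11, and with over 500 bases 8 of 16. Of all features, 4.72% had a ratio of at least 2 in control. The median ratio was 6.90, 4.10 and 2.02 in control and 9.69, 4.16 and 3.63 in Ikk2-CA. The summed level in Ikk2-CA was 4.35 times control for the shortest class, 3.30 for the middle and 1.82 for the longest. In Jak2 V617F it was 1.95, 1.57 and 1.30 times control, and in the double mutant 2.48, 2.07 and 1.63. Hist1h2ap gave 693 of the 2015 CPM of the shortest class in Ikk2-CA and 70.4 of 463 in control. The median ratio of single members to control in Ikk2-CA was 2.96, 3.20 and 1.47, so the shortest class was not above the middle one. The median was 1.46, 1.58 and 1.22 in Jak2 V617F and 2.33, 1.94 and 1.16 in the double mutant. Annotated lengths describe the reference, not the RNAs captured, and 13 of the longest class also carry the stem-loop, Hist1h2ac, Hist1h4d and Hist4h4 among them. In the longest class 4 of 16 members were at least 2-fold above control in Ikk2-CA, against 3.62% of all features. They were Hist1h4d, Hist1h2br, Hist1h1e and Hist1h4c, of which Hist1h4d (822 bases) had the highest ratio, 6.21.

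Counts per cell were also compared at equal depth. In cells thinned to 5000 UMIs the mean over the 67 symbols was 5.31 histone UMIs per cell in control, 17.6 in Ikk2-CA, 8.22 in Jak2 V617F and 10.6 in the double mutant. Among cells called Mki67-positive at full depth the median was 8 in control, 21 in Ikk2-CA, 13 in Jak2 V617F and 11 in the double mutant, and the 90th percentile was 21, 64, 30 and 37. Among Mki67-negative cells the medians were 2, 3, 2 and 3. Of positive cells, 48.4% in control held at least 9 histone UMIs, 62.1% in Ikk2-CA, 58.1% in Jak2 V617F and 54.7% in the double mutant. At 39 UMIs or more the shares were 0.397%, 32.6%, 2.55% and 8.08%. The libraries thus differed most in the upper part of the distribution. With this call the double mutant was below Jak2 V617F at its median and above it at its 90th percentile.

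**Figure D4:**
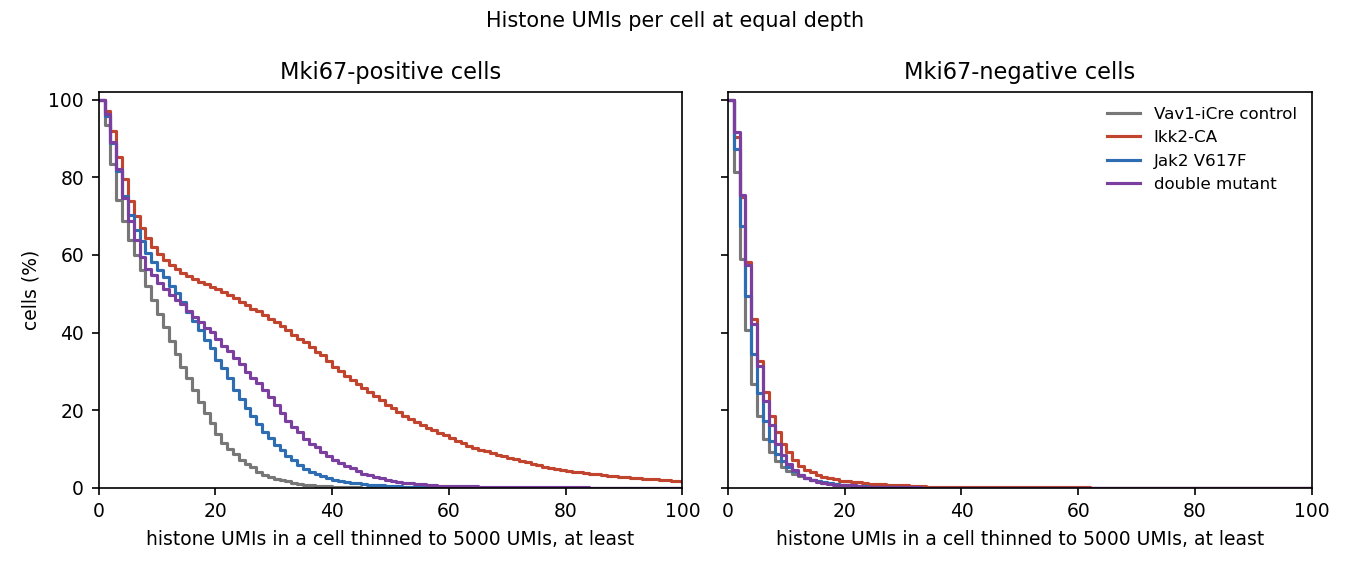
Share of cells (y axis, percent) with at least the number of histone UMIs on the x axis, after thinning every cell to 5000 UMIs, for Mki67-positive and Mki67-negative cells of the 4 libraries. At 39 UMIs the Ikk2-CA curve for positive cells is at 32.6% and the control curve at 0.397%.

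Genes of DNA replication, the process that uses new histones, did not follow the members in size. Of 39 replication genes, 0 passed 2-fold in either direction in any mutant, and their sum was 3542 CPM in control, 3767 in Ikk2-CA, 3768 in Jak2 V617F and 3966 in the double mutant. Their median log2 ratio was 0.08, 0.11 and 0.10. The highest in Ikk2-CA among those named was Ccne1 (cyclin E), at 10.6 CPM in control and 17.4 in Ikk2-CA. Rrm2, a subunit of ribonucleotide reductase, was at 76.8 and 112, and Tyms, thymidylate synthase, at 111 and 160. The 28 G2/M genes also gave 0 past 2-fold, with sums of 2384, 2647, 2450 and 2244 CPM. Yet all 28 were at least 2-fold higher in Mki67-positive cells in every library, against 4.72%, 3.85%, 3.55% and 3.37% of all features.

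Cells were also divided by the replication genes, with Mki67 called on the thinned counts. Among thinned cells with 23 or more replication UMIs (the upper quartile of control) and Mki67, the median was 12 histone UMIs per cell in control, 41 in Ikk2-CA, 17 in Jak2 V617F and 23 in the double mutant. Among cells below that limit with Mki67 it was 9, 25, 15 and 19. With this call the double mutant's median was thus above that of Jak2 V617F in both classes with Mki67. Among cells without Mki67 the median was 2, 4, 3 and 3 above the limit and 2, 3, 3 and 3 below it. The 2 libraries with the Jak2 allele had equal medians there, but their means differed. Above the limit the mean was 3.01 in control, 12.0 in Ikk2-CA, 5.22 in Jak2 V617F and 7.68 in the double mutant. Below it the mean was 3.26, 5.64, 4.07 and 5.30, so Ikk2-CA had the highest mean in both classes without Mki67. These classes are ranges of a count, not cell types.

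Genes that make or handle histone mRNA and protein stayed within 2-fold of control. Of 21 genes of histone mRNA processing, 20 reached 1 CPM and 0 passed 2-fold in any mutant. Of all features, 3.62%, 0.912% and 1.39% were at least 2-fold higher, and 7.5%, 1.7% and 7.31% at most 0.5-fold. Slbp was at 150 CPM in control, 151 in Ikk2-CA, 144 in Jak2 V617F and 132 in the double mutant. Npat, the coactivator of the histone clusters, was at 18.7, 13.0, 23.2 and 14.7 CPM, so it was lowest where the members were highest. Hinfp, the H4 gene transcription factor, was at 12.2, 8.65, 12.4 and 8.99. Of 17 histone chaperones 0 passed 2-fold, and Asf1b, which hands H3 and H4 to the replication fork, was highest in Ikk2-CA at 51.3 CPM against 35.3 in control, 29.2 in Jak2 V617F and 29.7 in the double mutant. Nasp, which binds soluble H3 and H4, was at 147, 170, 174 and 197.

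A list of replication-independent histone variants also stayed near control. Of 11 such genes 0 were at least 2-fold higher in any mutant, against 3.62%, 0.912% and 1.39% of all features. At most 0.5-fold were also 0, against 7.5%, 1.7% and 7.31%. The sum of the variants was 9679, 9763, 9057 and 9205 CPM. H2afx, which encodes H2A.X, was at 259 CPM in control, 358 in Ikk2-CA, 236 in Jak2 V617F and 265 in the double mutant. H2afy, a macroH2A gene, was at 2500.2 CPM in control against 1948 in Ikk2-CA, 2071 in Jak2 V617F and 1986 in the double mutant. In Ikk2-CA the summed variants were thus at 1.01 of control where the replication-dependent members were at 3.14.

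Many H2A and H2B members lie in head-to-head pairs that start within 500 bases of each other on opposite strands. There were 12 such pairs, and in 10 both genes were members. The windows below hold the shared region of 2 pairs, from 250 bases before to 50 after the start of the H2A gene, in RefSeq sequence on GRCm38.p6. Capitals mark 3 promoter motifs on either strand: the TATA box (TATAAA), the CCAAT box and the octamer (ATTTGCAT).
Hist2h2ac (chr3:96220831-96221130, minus strand): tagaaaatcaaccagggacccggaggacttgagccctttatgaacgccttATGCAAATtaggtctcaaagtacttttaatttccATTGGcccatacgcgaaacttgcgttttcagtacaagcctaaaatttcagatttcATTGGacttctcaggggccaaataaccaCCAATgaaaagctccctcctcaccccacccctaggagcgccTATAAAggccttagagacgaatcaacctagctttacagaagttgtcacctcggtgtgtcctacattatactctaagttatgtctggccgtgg
Hist1h2ac (chr13:23683910-23684209, minus strand): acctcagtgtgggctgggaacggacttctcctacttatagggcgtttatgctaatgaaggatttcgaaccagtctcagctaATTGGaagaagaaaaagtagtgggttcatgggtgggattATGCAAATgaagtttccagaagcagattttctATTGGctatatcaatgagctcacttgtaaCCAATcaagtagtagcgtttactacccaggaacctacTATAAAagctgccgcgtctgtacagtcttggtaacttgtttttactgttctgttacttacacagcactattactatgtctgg
Both windows hold 1 TATA box, 3 CCAAT boxes and 1 octamer. The octamer was found in 13 of the 60 promoters matched over the 67 symbols, against 1.75% of 27025 RefSeq promoters. The CCAAT box was found in 51 of 60 against 37.9%, and the TATA box in 34 of 60 against 14.2%. By type over the 54 members with a promoter, the octamer was in 6 of 15 H2A and 5 of 14 H2B promoters and in 0 of 4 H1, 9 H3 and 12 H4 promoters. A match describes letters in a window and not binding.

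**Figure D5:**
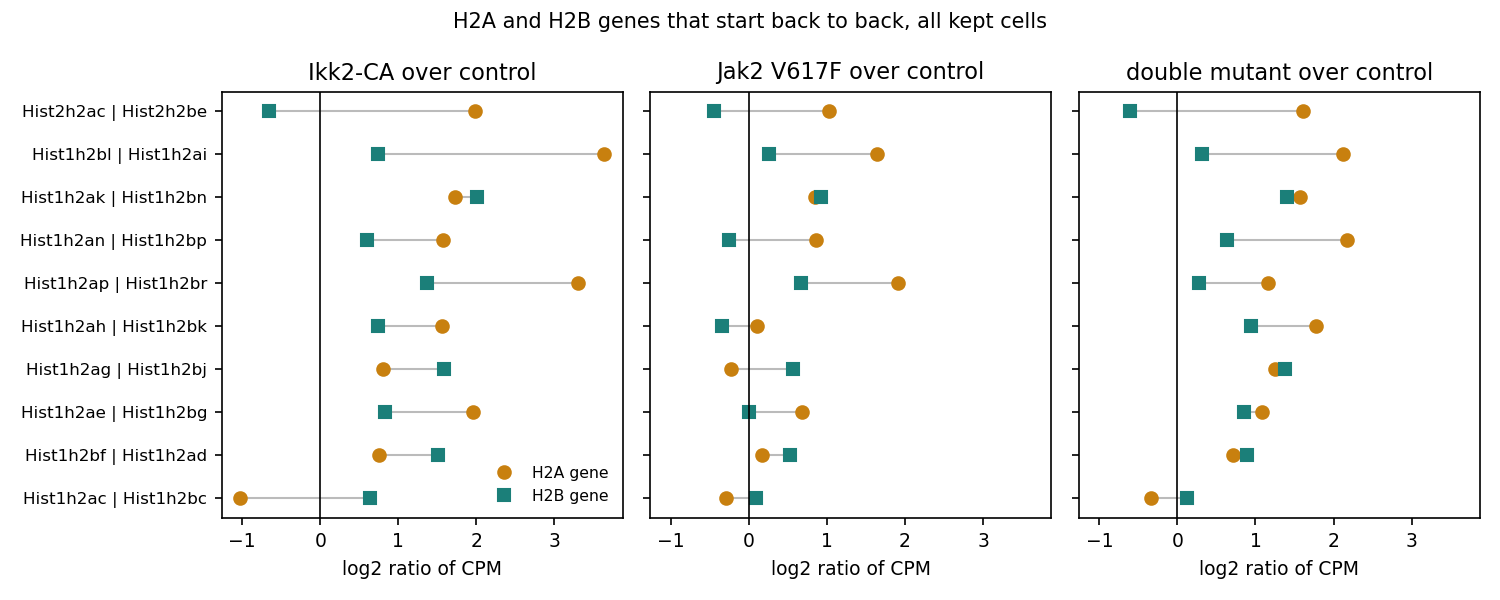
Log2 ratio of CPM over control (x axis) of the H2A gene (circle) and the H2B gene (square) of each of 10 head-to-head pairs in the 3 mutants over all kept cells; a line joins the genes of a pair. In the Hist2h2ac and Hist2h2be pair the H2A gene lies above 0 and the H2B gene below 0 in every mutant.

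In Ikk2-CA the genes of a pair differed in opposite directions only for Hist2h2ac with Hist2h2be and Hist1h2ac with Hist1h2bc. In every other pair of members both genes were above control there. Hist2h2ac and Hist2h2be are 238 bases apart, yet Hist2h2ac was 3.95-fold above control in Ikk2-CA, 2.04-fold in Jak2 V617F and 3.05-fold in the double mutant, while Hist2h2be was at 0.635, 0.735 and 0.656. Hist1h2ac and Hist1h2bc are 250 bases apart and were at 0.489 and 1.56 times control in Ikk2-CA. Hist1h2ap and Hist1h2br were at 9.85 and 2.57, and Hist1h2ae and Hist1h2bg at 3.87 and 1.77. Closer values were seen for Hist1h2ak and Hist1h2bn, at 3.32 and 4.01. Both Hist2h2be and Hist1h2ac have long annotated 3′ UTRs, of 2192 and 2058 bases, and their partners Hist2h2ac and Hist1h2bc of 94 and 742. Hist1h2br, with an annotated 3′ UTR of 1803 bases, was however above control in Ikk2-CA, at 2.57.

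Markers of other cell types moved with the genotypes and are given beside these results. In Ikk2-CA 10 of 10 B cell markers were at least 2-fold above control, against 3.62% of all features. Their sum was 273 CPM in control, 1274 in Ikk2-CA, 88.3 in Jak2 V617F and 111 in the double mutant, with none at 0. Cells with 3 or more UMIs of that list were 8.38%, 32.9%, 3.33% and 12.0% of the cells. The histone sum in those cells was 1457 CPM in control, 4738 in Ikk2-CA, 2283 in Jak2 V617F and 2647 in the double mutant. In all other cells it was 1211, 3418, 1982 and 2538 CPM, so the order of the libraries was the same without the B-lineage cells.

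In Jak2 V617F and in the double mutant 9 of the 10 B cell markers were at most 0.5-fold, against 1.7% and 7.31% of all features. Of 10 erythroid markers 4 were at least 2-fold higher in Ikk2-CA, against 3.62% of all features. They were the globins Hba-a1, Hba-a2, Hbb-bs and Hbb-bt, and the list's sum was 255, 1036, 277 and 207 CPM. Car1, an early erythroid gene, was at 144, 90.4, 54.3 and 16.1. The plasma cell list was at 911, 4161, 222 and 180 CPM, the dendritic list at 464, 1046, 401 and 366, and the megakaryocyte list at 198, 507, 174 and 585. Of 7 megakaryocyte markers tested, Pf4 alone was at least 2-fold higher in Ikk2-CA and in the double mutant (444 and 509 CPM against 99.3 in control). Of all features, 3.62% and 1.39% were. The mast cell and basophil list was at 44.4, 103, 31.0 and 99.1 and the granulocyte-monocyte list at 3339, 2483, 2465 and 2407. The T and NK cell list was at 222, 160, 218 and 215, nearly all of it Nkg7, while Cd3e was at 0 in the double mutant. Among 8 stem cell and gate genes 5 were at most 0.5-fold in Ikk2-CA, against 7.5% of all features. Hlf was at 43.4 CPM there against 221 in control. The part of these lists in the histone values, other than the B cell list, was not tested.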

How the data were processed

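Single-cell RNA of 4 pooled LSK libraries was used. The deposited values were UMI counts per gene and cell, written by Cell Ranger 4.0.0 per the file headers, whereas the series design text names version 3.0.1; the authors aligned to mm10 and list Seurat 4.0.0, per the submitters' processing notes. Here cells with 500 to 7500 genes and under 10% mitochondrial UMIs were kept, the counts were summed per library and cell class, and sums were divided by the library total (CPM). Ratios carry exact conditional binomial intervals, levels exact Poisson intervals and shares Clopper-Pearson intervals, all at 95% and for counting error only. With 1 library per genotype no p-value was computed, and a member was called past 2-fold. Depth per library ran from 102362297 to 197836491 UMIs in kept cells. Scripts were tested on simulated data. No doublet caller was run; cells over 2 times their library's median depth were left out in an alternative.

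Members, gene lists and comparisons were chosen with earlier results of these data known. Named members were the 10 with the highest mean CPM, the 5 highest and 5 lowest ratios per mutant among members with 10 CPM or more, and the 3 highest and 3 lowest Mki67 ratios per library; from the other lists, up to 6 genes with the largest ratios. Further members are named as pair partners, as threshold neighbours or as examples chosen after their values were seen. The groupings by 3′ UTR length, by Mki67 ratio and by head-to-head pair were also made after the values were seen. Stem-loops were read from GENCODE M21 transcripts on GRCm38 and promoters from RefSeq (GRCm38.p6). Of the 67 symbols, 60 matched a RefSeq promoter. Of the 61 members, 27 share at least 50% of their 50-base stretches with another histone symbol. A gene on the opposite strand overlaps 19 members and one on the same strand overlaps 7. How reads in shared or overlapping stretches were counted was not tested. Levels of members with shared stretches or a same-strand overlap may miss reads or hold those of another gene.

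Alternatives were all barcodes, TMM factors (edgeR 4.0.16) and median-of-ratios factors (DESeq2 1.42.0), used for scaling only, per-cell means, thinning, cells without Xist, no B-lineage cells, other Mki67 calls, Top2a and other member thresholds. Python 3.11.15, numpy 2.4.6, scipy 1.17.1, pandas 2.3.3, matplotlib 3.10.9 and R 4.3.3 were used.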

Additional observations from a re-analysis of the deposited data

Results flagged for a closer look

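Barcodes removed by the cell filter, which the comparisons as reported left out, also carried histone UMIs. Their summed level was 1857.62 CPM in Ikk2-CA, 1339.42 in Jak2 V617F and 2136.66 in the double mutant, each above the 1019 CPM of the control's removed barcodes. These rest on 5012826 UMIs in control, 1689795 in Ikk2-CA, 3723254 in Jak2 V617F and 4239791 in the double mutant.

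Among members with 10 CPM or more in either library, 4 had a counting interval of the ratio to control above 1 in one Mki67 class and below 1 in the other. Members whose intervals reached 1 in either class are not given here. With 1 library per genotype the difference was not tested. For Hist1h1d the log2 ratio in positive cells minus that in negative cells was 1.12 in Ikk2-CA and 0.36 in the double mutant. For Hist1h2be it was 0.99 in Ikk2-CA, and for Hist1h1c it was 0.34 in the double mutant. For Hist1h4i the sign was the other way, at -0.42 in Jak2 V617F and -0.38 in the double mutant.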

How the results depend on the processing

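None of the 203 alternatives of the main comparisons reversed a summed log2 ratio, and the histone types kept their direction in 281 of 281. The 203 include counts of members past 2-fold, which have no direction to reverse. In size, 117 of the 203 moved. Of 648 alternatives for named members, 17 changed direction, at Hist1h2bc, Hist1h3d, Hist3h2ba, Hist1h2ah, Hist1h3b, Hist1h4i and Hist3h2a. Ratios that moved past their counting interval follow, on the log2 scale, and the cause was not tested. Counts of members have no interval, and not every count that changed is listed. With median-of-ratios factors 45 members were at least 2-fold higher in Ikk2-CA and 41 in the double mutant, against 35 and 29 as reported. As reported, the ratios over control were 1.65 (Ikk2-CA), 0.69 (Jak2 V617F) and 1.04 (double mutant). Leaving out Hist1h2ap or Hist1h4d and scaling to the median gene were chosen after seeing the data. No paired analysis was possible because each genotype had 1 library, so no replicate could be left out either. With TMM factors, the log2 ratio over control was 1.90 (Ikk2-CA) and 1.29 (double mutant) and that of the double mutant over the single mutants was 0.60 (Jak2 V617F). Under that setting, members at most 0.5-fold numbered 0 (Ikk2-CA). With median-of-ratios factors, the log2 ratio over control was 1.93 (Ikk2-CA) and 1.37 (double mutant) and that of the double mutant over the single mutants was -0.56 (Ikk2-CA) and 0.67 (Jak2 V617F). Under that setting, members at most 0.5-fold numbered 0 (Ikk2-CA). Thinned to 5000 UMIs, the log2 ratio over control was 1.73 (Ikk2-CA), 0.63 (Jak2 V617F) and 0.99 (double mutant) and that of the double mutant over the single mutants was -0.73 (Ikk2-CA). Under that setting, the log2 ratio of positive over negative cells was 1.79 (control), 2.68 (Ikk2-CA) and 2.08 (double mutant) and that over control in positive cells was 1.49 (Ikk2-CA), 0.53 (Jak2 V617F) and 0.71 (double mutant). There, that over control in negative cells was 0.23 (Jak2 V617F) and 0.42 (double mutant). With Xist-free cells alone, the log2 ratio over control was 1.58 (Ikk2-CA), 0.63 (Jak2 V617F) and 1.02 (double mutant) and that of the double mutant over the single mutants was -0.55 (Ikk2-CA) and 0.39 (Jak2 V617F). Under that setting, members at most 0.5-fold numbered 2 (Ikk2-CA). Without B-lineage cells, the log2 ratio over control was 1.50 (Ikk2-CA), 0.71 (Jak2 V617F) and 1.07 (double mutant) and that of the double mutant over the single mutants was -0.43 (Ikk2-CA). Under that setting, the log2 ratio of positive over negative cells was 2.56 (Ikk2-CA) and that over control in positive cells was 1.33 (Ikk2-CA) and 0.81 (double mutant). There, that over control in negative cells was 0.62 (Ikk2-CA) and members at most 0.5-fold numbered 3 (Ikk2-CA). Without cells of very high depth, the log2 ratio over control was 1.82 (Ikk2-CA), 0.74 (Jak2 V617F) and 1.24 (double mutant) and that of the double mutant over the single mutants was -0.59 (Ikk2-CA) and 0.50 (Jak2 V617F). Under that setting, the log2 ratio of positive over negative cells was 2.76 (Ikk2-CA), 2.12 (Jak2 V617F) and 2.22 (double mutant) and that over control in positive cells was 1.46 (Ikk2-CA), 0.54 (Jak2 V617F) and 0.78 (double mutant). There, that over control in negative cells was 0.29 (Jak2 V617F) and 0.44 (double mutant) and members at least 2-fold higher numbered 15 (Jak2 V617F). There, members at most 0.5-fold numbered 2 (Ikk2-CA). With Mki67 classes at control shares, the log2 ratio over control was 1.30 (Ikk2-CA), 0.52 (Jak2 V617F) and 0.73 (double mutant) and that of the double mutant over the single mutants was -0.57 (Ikk2-CA) and 0.22 (Jak2 V617F). Under that setting, members at least 2-fold higher numbered 4 (Jak2 V617F) and 18 (double mutant) and members at most 0.5-fold numbered 3 (Ikk2-CA). With members of 10 CPM or more, the log2 ratio over control was 1.69 (Ikk2-CA), 0.71 (Jak2 V617F) and 1.07 (double mutant) and members at most 0.5-fold numbered 0 (Jak2 V617F). Without Hist1h2ap, the log2 ratio over control was 1.45 (Ikk2-CA) and 0.57 (Jak2 V617F) and that of the double mutant over the single mutants was -0.42 (Ikk2-CA) and 0.47 (Jak2 V617F). Without Hist1h4d, the log2 ratio over control was 1.61 (Ikk2-CA), 0.68 (Jak2 V617F) and 0.96 (double mutant) and that of the double mutant over the single mutants was -0.65 (Ikk2-CA) and 0.28 (Jak2 V617F). By the mean of per-cell CPM, the log2 ratio over control was 0.55 (Jak2 V617F) and 0.95 (double mutant) and that of the double mutant over the single mutants was -0.70 (Ikk2-CA) and 0.40 (Jak2 V617F). Under that setting, the log2 ratio of positive over negative cells was 1.64 (control), 2.64 (Ikk2-CA), 1.97 (Jak2 V617F) and 2.04 (double mutant) and that over control in positive cells was 1.47 (Ikk2-CA), 0.51 (Jak2 V617F) and 0.70 (double mutant). There, that over control in negative cells was 0.46 (Ikk2-CA), 0.18 (Jak2 V617F) and 0.30 (double mutant) and members at least 2-fold higher numbered 5 (Jak2 V617F). With all deposited barcodes, members at most 0.5-fold numbered 2 (Ikk2-CA). With every symbol with a UMI, members at most 0.5-fold numbered 3 (Ikk2-CA), 2 (Jak2 V617F) and 2 (double mutant). Relative to the median gene, members at most 0.5-fold numbered 0 (Ikk2-CA). With 2 or more Mki67 UMIs for positive, the log2 ratio of positive over negative cells was 2.03 (control), 2.93 (Ikk2-CA), 2.27 (Jak2 V617F) and 2.38 (double mutant) and that over control in positive cells was 1.48 (Ikk2-CA) and 0.82 (double mutant). With Mki67 called at 5000 UMIs, the log2 ratio of positive over negative cells was 1.76 (control), 1.94 (Ikk2-CA), 1.68 (Jak2 V617F) and 1.54 (double mutant) and that over control in positive cells was 1.54 (Ikk2-CA) and 0.92 (double mutant). Under that setting, that over control in negative cells was 1.35 (Ikk2-CA), 0.63 (Jak2 V617F) and 1.13 (double mutant). With Top2a, the log2 ratio of positive over negative cells was 1.23 (control), 2.34 (Ikk2-CA), 1.64 (Jak2 V617F) and 1.66 (double mutant) and that over control in positive cells was 1.64 (Ikk2-CA), 0.66 (Jak2 V617F) and 0.93 (double mutant). Under that setting, that over control in negative cells was 0.53 (Ikk2-CA), 0.25 (Jak2 V617F) and 0.49 (double mutant).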
